A study of Mus musculus with 24 samples.

Results

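The 31 genes described here carry cholesterol through the steps of its life in an adrenal cell: 5 enzymes that build mevalonate and its activated forms, 4 that join isoprene units up to squalene epoxide, 9 that turn it into lanosterol and then cholesterol, 5 proteins that control the pathway, and 8 that take cholesterol up, store it as esters, free it from the lysosome, carry it or export it. They were picked by name as genes of these steps and read as the brightest probe bearing each name, with Msmo1 written Sc4mol in the files. All 31 were found among the 26372 features tested, and each was well above background on all 24 arrays. RNA of adrenal glands from C57BL/6 mice, WT or Kcnk3 null, was labelled with Cy3 and hybridised to one-colour arrays, 3 in each of 8 groups. Kcnk3 encodes a background potassium channel of the adrenal cortex. The groups were females null or WT after a sham procedure, females null or WT given testosterone, males null or WT after a sham procedure, and castrated males null or WT. The series' design speaks of groups of animals but not of whether each array is 1 animal, so p-values measure the spread between these samples. The way the null allele was made, the ages and the testosterone dose are not given in the sources used here.

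Cholesterol is the substrate of every adrenal steroid. Adrenal cells of mice take most of it from high-density lipoprotein through the receptor Scarb1, keep it as esters in lipid droplets, and can make it from acetyl-CoA. When the membrane of the endoplasmic reticulum is poor in sterol, Scap carries the precursors of the transcription factors encoded by Srebf1 and Srebf2 to the Golgi, where they are cleaved and switch on the synthesis genes, and Insig proteins hold Scap back when sterol is plentiful. Insig1 is itself a target of these factors, whereas Abca1, the exporter, is switched on by the sterol-sensing receptor LXR. Because glands were measured whole, fewer cells of a type and less RNA per cell cannot be told apart.

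Some arrays stood apart or went against their labels. Kcnk3 was at 12.1% to 29.9% of the mean of female WT sham arrays in female null sham arrays and at 5.63% to 10.67% in female null testosterone arrays, and relative to male WT sham arrays at 34.6% to 69.0% in male null sham and 16.0% to 22.0% in male null castrated arrays. Male null sham array 2, at 69.0%, was close to the lowest male WT sham array, at 71.0%, and which part of the gene is deleted is not given. On 9 arrays the sex-linked transcripts of the sex opposite to the label reached 17.4% to 58.0% of their level in arrays of that sex, against at most 6.08% on the others. These were female WT sham arrays 2 and 3, all 3 female WT testosterone arrays, male null sham arrays 1 and 2, and male null castrated arrays 1 and 2. Of the others, male null sham array 3 had 6.08% and male null castrated array 3 had 4.15%. Male WT arrays had 0.56% to 1.11%. Female WT sham array 1 had 1.20%, against 0.11% to 0.18% on female null arrays. Arrays below said to be without opposite sex-linked signal are all but the 9, and may hold some of it. Averaged over the 4 null and WT pairs, 2 of 3 sex-linked transcripts passed as lower and 1 as higher (limma, adjusted p under 0.05). Albumin, a liver transcript, was far above its level elsewhere on female null testosterone array 1 and male WT sham array 3. The RNA integrity number ran from 3 to 9, with the value of 3 on female WT sham array 3 and female WT testosterone array 3, the arrays of slide 4. All 6 adrenal cortex markers were well above background on every array. Levels below are log2 processed signal minus the 75th percentile of the array, so they compare arrays for 1 gene and not genes with each other, and array numbers 1, 2 and 3 within a group have no order.

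The cholesterol genes stood lowest in female null sham glands and highest in female WT sham glands. The median deviation of the 31 genes from the mean of their 8 group means was -0.33, -0.19 and -0.61 on the female null sham arrays, against 0.52, 0.51 and 0.17 on the female WT sham arrays. It was -0.09, -0.35 and -0.44 in female null testosterone arrays, against -0.03, -0.01 and -0.07 in female WT testosterone arrays. Every female null array lay under every WT array of the same treatment, by a narrow margin with testosterone. It was 0.19, 0.15 and -0.10 in male null sham arrays, against 0.17, 0.09 and -0.15 in male WT sham arrays, which overlapped throughout. In castrated males it was -0.24, -0.03 and -0.15 in null arrays, against 0.35, 0.42 and 0.04 in WT arrays, with every null array under every WT array.

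**Figure D1:**
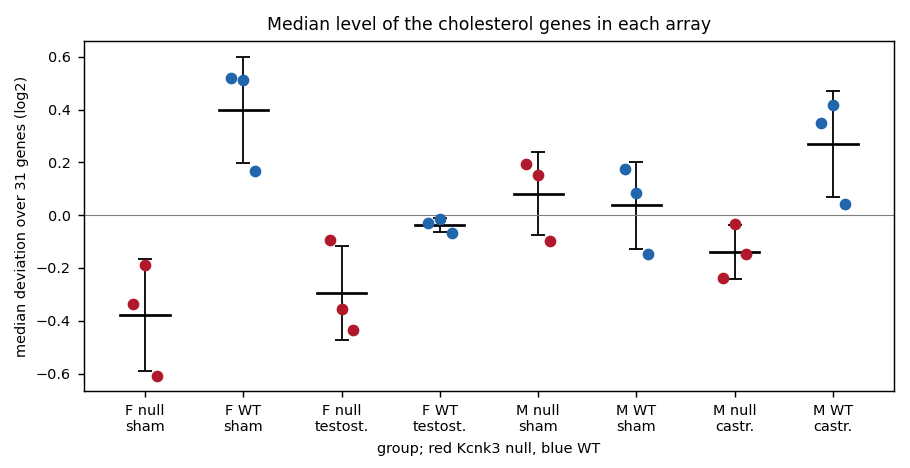
Median deviation of the 31 cholesterol genes on each of 24 arrays (log2 signal minus the mean of the 8 group means), by group, with null groups in red to the left of WT groups in blue. Points are arrays, the bar is the mean and the whiskers are 1 SD (n = 3). The female null sham arrays lie at -0.61 to -0.19 and the female WT sham arrays at 0.17 to 0.52, and the male sham groups overlap.

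**Figure D2:**
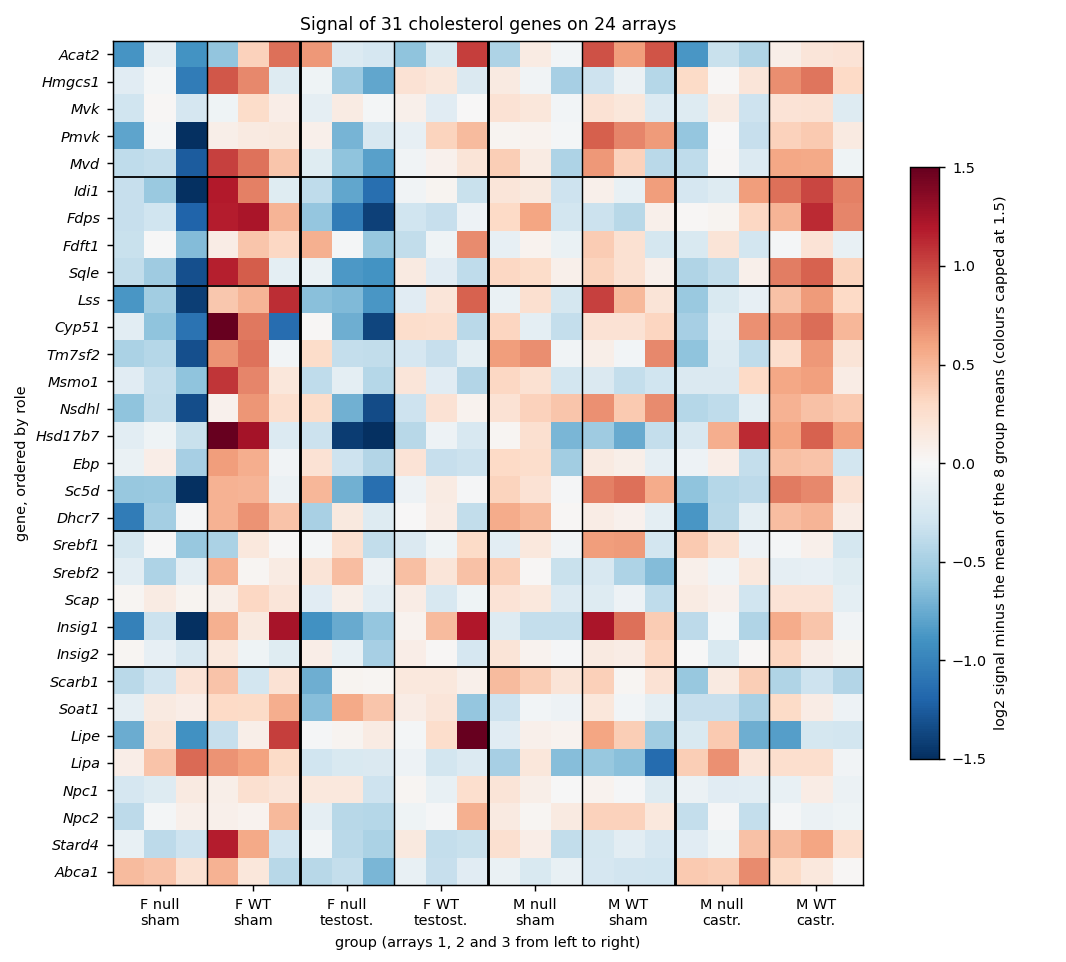
Level of each of the 31 genes (rows, by role) on each of 24 arrays (columns, by group), as log2 signal minus the mean of the 8 group means, with blue for lower and red for higher and colours capped at 1.5. Most synthesis rows are blue in the female null sham columns, deepest on array 3, and the uptake and storage rows at the bottom are paler there apart from Lipe and Lipa.

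In female sham glands, null against WT, 6 of the 31 genes fell and none rose, each of the 6 by a factor of 2.05 to 3.1. They were the synthesis enzymes Mvd, Fdps, Sqle, Lss and Msmo1 and the regulator Insig1. Of all features 0.664% passed the same test, 0.224% as lower (limma, Benjamini-Hochberg adjusted p under 0.05). The differences were negative for 30 of the 31 genes with a median of -0.83, against -0.02 over all features, and Abca1 was the exception at 0.29 ± 0.18 (SE). Without adjustment 18 genes had p under 0.05, all as lower, while 4.74% of all features did so as lower. The null and WT arrays did not overlap for 15 genes, while 13.7% of features showed no overlap in either direction.

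The count in female sham glands rested on few arrays. With 1 array left out the count was 2 when that array was 1 or 3 of the female null sham group or 1 of the female WT sham group, 3 when it was array 2 of female WT sham, male WT sham or male null sham, and 10 when it was array 1 of female null testosterone. Replicate numbers 1 and 2 each mark 1 slide and number 3 marks slides 3 and 4, and with the number as a block 10 genes fell: the 6 named and Hmgcs1, Tm7sf2, Sc5d and Dhcr7. Within slide 1, which held 1 array of each group, the median of the 31 genes was -0.83, and within slide 2 it was -0.48, with 30 and 29 genes negative. Without the arrays that carried opposite sex-linked signal, female WT sham had 1 array, whose spread was taken to be that of the other groups. Then the median was -0.84 and 1 gene passed, Stard4 (-0.76 on all arrays and -1.45 without them, adjusted p = 0.0428), while Fdps (-1.80, adjusted p = 0.146), Lss (-1.34, adjusted p = 0.207) and Insig1 (-1.53, adjusted p = 0.267) did not.

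Averaged with equal weight over the 4 null and WT pairs, 9 genes fell and none rose: Pmvk, Mvd, Idi1, Fdps, Sqle, Lss, Nsdhl, Sc5d and Insig1. Of all features 2.85% passed in this average, 1.36% as lower. The median of the 31 differences was -0.33, against -0.02 over all features, and 28 were negative. Of the genes, 17 had an unadjusted p under 0.05 as lower, while 7.67% of features did. Leaving out any 1 of the 24 arrays left 9 to 11 genes called. With the testosterone pair left out and only the arrays without opposite sex-linked signal kept, 3 of the 6 groups had a lone array, the median was -0.52, and none of the genes passed in limma, with Lss at -0.92 (adjusted p = 0.237) and Insig1 at -1.15 (adjusted p = 0.248).

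**Figure D3:**
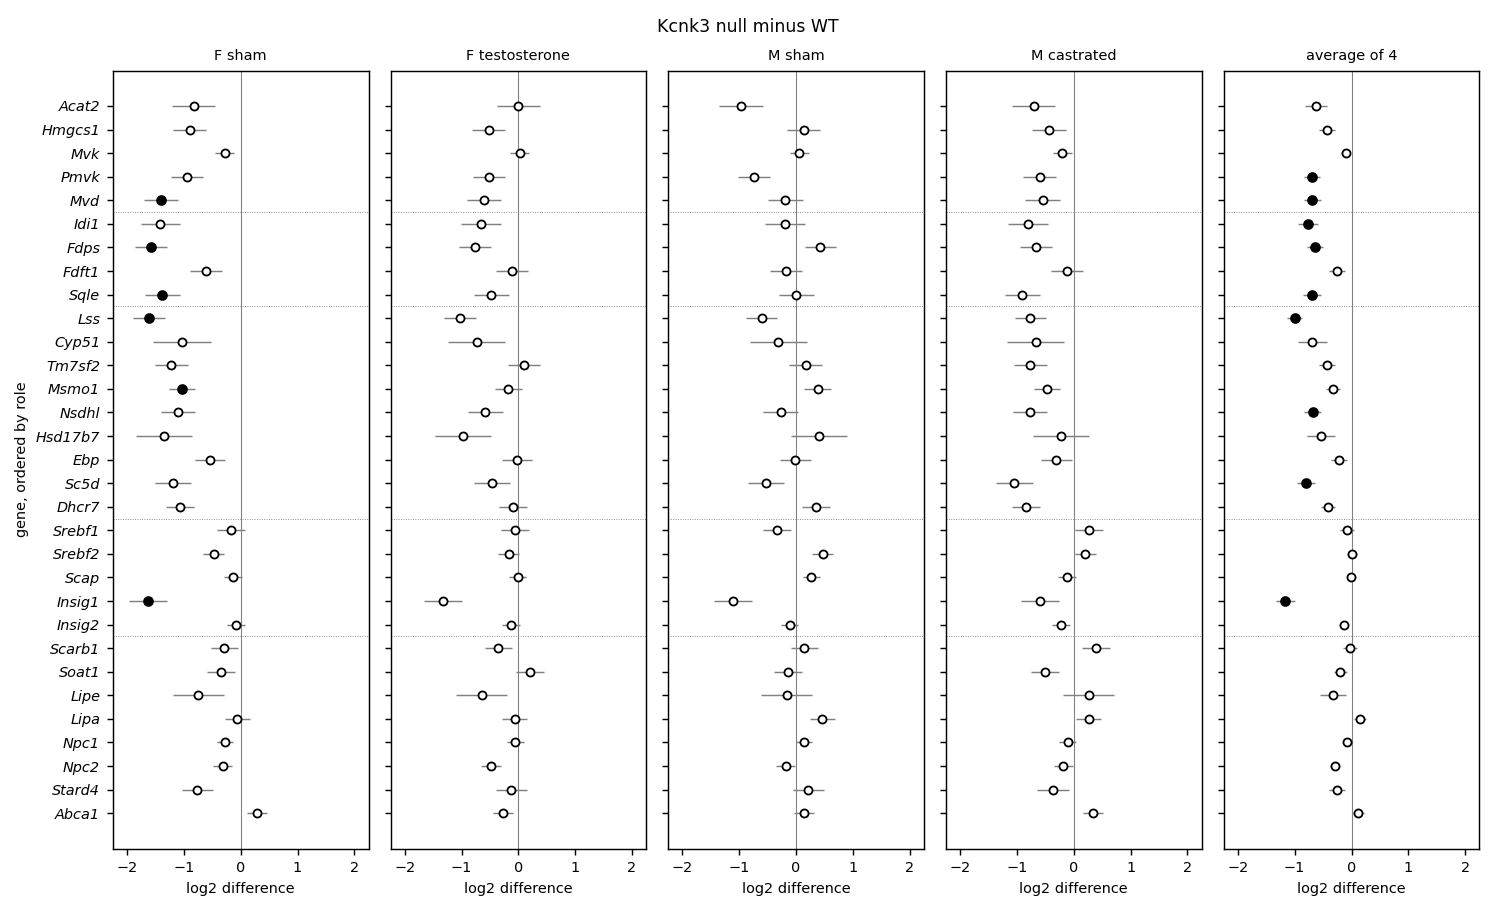
Difference of null minus WT for each of the 31 genes (rows, by role) in female sham, female testosterone, male sham and castrated male glands and in their average, on the log2 scale. Points are limma estimates with whiskers of 1 SE, and filled points passed an adjusted p of 0.05. Filled points number 6 in female sham, 9 in the average and none in the other 3 panels.

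The other pairs taken alone gave no call. In castrated males 0 of 31 genes passed in limma, while 0.774% of all features did. The median was -0.44, 25 genes were negative, 8 had an unadjusted p under 0.05 as lower (3.7% of features), and 15 showed no overlap (17% of features). The smallest p-values there were those of Dhcr7, the reductase of the last step to cholesterol (-0.84 ± 0.25, adjusted p = 0.165), Sc5d, a sterol desaturase (-1.04 ± 0.32, adjusted p = 0.199), Sqle (-0.91 ± 0.31, adjusted p = 0.311) and Lss (-0.76 ± 0.28, adjusted p = 0.38). Without the 2 arrays with liver transcripts 1 gene passed, Sc5d (adjusted p = 0.0452), and 1 gene passed without female null testosterone array 1 alone. Neither of these arrays was of castrated males, so the differences there were unchanged. Within slides 1, 2 and 3 the median was -0.63, -0.45 and -0.14. Under testosterone 0 of 31 genes passed in limma, while 0.0417% of features did. There the median was -0.27, 28 genes were negative, 4 had an unadjusted p under 0.05 as lower (5.23% of features), and 8 did not overlap (9.28% of features). Insig1 (-1.32 ± 0.34, adjusted p = 0.175), Lss (-1.02 ± 0.28, adjusted p = 0.206), the lysosomal carrier Npc2 (-0.48 ± 0.17, adjusted p = 0.355) and Fdps (-0.76 ± 0.28, adjusted p = 0.368) had the smallest p-values. Within slides 1 and 2 the median was -0.21 and -0.12. Null array 1 of this pair carried liver transcripts. With any 1 array left out the median ran from -0.34 to -0.12. All 3 female WT testosterone arrays carried opposite sex-linked signal, so no value without such arrays could be had.

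In male sham glands the genes were spread around 0. None of the 31 passed in limma, while 0.0303% of all features did. The median was -0.01, with 16 genes negative and 15 positive. Without adjustment 4 were lower (1.95% of features) and 1 was higher (1.8% of features) at p under 0.05, and 6 did not overlap (14.7% of features). Insig1 (-1.12 ± 0.34, adjusted p = 0.799), Pmvk (-0.74 ± 0.29, adjusted p = 0.999), Srebf2 (0.47 ± 0.19, adjusted p = 0.999) and Acat2 (-0.97 ± 0.38, adjusted p = 0.999) came first by p. Within slides 1, 2 and 3 the median was 0.07, 0.04 and -0.05. With any 1 array left out it ran from -0.10 to 0.08. Kcnk3 stood at 34.6% to 69.0% of the male WT sham mean in these null arrays. Null arrays 1 and 2 carried opposite sex-linked signal, and WT array 3 carried liver transcripts. Without the arrays with opposite sex-linked signal, null array 3 was alone in its group and the median was -0.15.

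Whether the null against WT difference itself differed between settings was tested by interaction. Between female sham and male sham 0 genes passed in limma, while 0.121% of all features did, with a median of -0.58. At an unadjusted p under 0.05 there were 12 genes, all more negative in females (3.19% of features). Fdps came nearest (-2.01 ± 0.40, adjusted p = 0.0581), followed by Msmo1 (-1.41 ± 0.33, adjusted p = 0.149), Dhcr7 (-1.41 ± 0.35, adjusted p = 0.203) and Srebf2 (-0.95 ± 0.26, adjusted p = 0.301). For null minus WT a second Srebf2 probe gave 0.04 in female sham and 0.22 in male sham glands, against -0.48 and 0.47 for the brighter one. The count was 1 with replicate number as a block (Fdps, adjusted p = 0.0417) and 1 with slide as a block (Msmo1, adjusted p = 0.0331). It was also 1 without female null testosterone array 1 or 3 or male null sham array 3, and it was 2 without female WT sham array 3. Without slide 4, the 2 arrays of lowest RNA integrity, both Fdps and Msmo1 passed (adjusted p = 0.0243 for each). Without the arrays with opposite sex-linked signal the median was -0.51, with 1 array left in each of female WT sham and male null sham. Between castrated and sham males 0 passed, while 0.0948% of features did (median -0.30, 4 genes more negative in castrated males at an unadjusted p under 0.05, as were 2.41% of features), led by Dhcr7 (-1.19 ± 0.35, adjusted p = 0.453), Fdps (-1.10 ± 0.40, adjusted p = 0.762), Msmo1 (-0.86 ± 0.33, adjusted p = 0.87) and Tm7sf2 (-0.93 ± 0.41, adjusted p = 1). Between testosterone and sham females 0 passed, while 0.114% of features did (median 0.43). At an unadjusted p under 0.05, 3 genes were higher (1.41% of features) and 1 was lower (2.43% of features) in that difference. Tm7sf2 (1.32 ± 0.41, adjusted p = 0.568), Dhcr7 (0.97 ± 0.35, adjusted p = 0.863), Msmo1 (0.86 ± 0.33, adjusted p = 0.988) and Abca1 (-0.56 ± 0.25, adjusted p = 1) led that list.

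Of the 5 enzymes that build activated mevalonate, Mvd fell in female sham glands, and both Mvd and Pmvk fell in the average of the pairs. Mvd, mevalonate diphosphate decarboxylase, makes isopentenyl diphosphate. Its level was -0.31, -0.29 and -1.18 in female null sham arrays, against 1.09, 0.88 and 0.48 in female WT sham arrays. The null arrays were all below 0 and the WT arrays all above it, a difference of -1.41 ± 0.30, adjusted p = 0.0365, 2.66-fold lower. Under testosterone it was -0.12, -0.54 and -0.75 in null females, against 0.01, 0.13 and 0.26 in WT females. The gap was narrower there, and the arrays still did not overlap. In males Mvd was 0.44, 0.19 and -0.40 in null sham arrays, against 0.72, 0.41 and -0.34 in WT sham arrays, and -0.32, 0.08 and -0.14 in null castrated arrays, against 0.65, 0.63 and -0.0017 in WT castrated arrays. Male arrays overlapped after either procedure. The average of the 4 pairs was -0.69 ± 0.15, adjusted p = 0.0181.

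Pmvk, phosphomevalonate kinase, acts just before Mvd. It was 3.46, 4.22 and 2.61 in female null sham arrays, against 4.35, 4.39 and 4.40 in female WT sham arrays, where null array 3 was lowest by far. With testosterone it was 4.33, 3.56 and 4.02 in null females, against 4.14, 4.59 and 4.73 in WT females, and 1 null array reached above 1 WT array. Male sham values were 4.30, 4.30 and 4.22 in null arrays, against 5.16, 4.99 and 4.89 in WT arrays, and castrated values were 3.68, 4.26 and 3.91 in null arrays, against 4.61, 4.65 and 4.39 in WT arrays. Neither male pair overlapped, and the average of the 4 pairs was -0.70 ± 0.14, adjusted p = 0.0121. Of the other 3 enzymes, Acat2, the cytosolic thiolase that starts the pathway, averaged -0.63 ± 0.19, adjusted p = 0.0918, and its replicates were spread, from -0.03 to 1.39 in female WT sham arrays. Hmgcs1, HMG-CoA synthase, averaged -0.43 ± 0.15, adjusted p = 0.133, and Mvk, mevalonate kinase, averaged -0.10 ± 0.08, adjusted p = 0.635.

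The isoprenoid and squalene enzymes held the lowest median of the 5 roles in female sham glands, -1.40 over 4 genes, with Fdps and Sqle called. Fdps, farnesyl diphosphate synthase, was 4.75, 4.79 and 3.90 in female null sham arrays, against 6.27, 6.31 and 5.60 in female WT sham arrays. The lowest WT array stood above the highest null array, and the difference was -1.59 ± 0.28, adjusted p = 0.0108, 3.00-fold lower. It was 4.51, 4.04 and 3.69 in null females given testosterone, against 4.79, 4.74 and 5.01 in WT females given it, also without overlap. In male sham glands the order was the other way, 5.39, 5.68 and 4.82 in null arrays, against 4.76, 4.67 and 5.17 in WT arrays, with overlap (0.43 ± 0.28, adjusted p = 0.999). Castrated males had 5.11, 5.13 and 5.40 in null arrays, against 5.61, 6.21 and 5.83 in WT arrays, and did not overlap. The average of the pairs was -0.65 ± 0.14, adjusted p = 0.0175.

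Sqle, squalene epoxidase, performs the first oxygen-dependent step. Its level was 2.24, 2.07 and 1.29 in female null sham arrays, against 3.77, 3.51 and 2.46 in female WT sham arrays, with WT array 3 lower than its replicates and still above every null array (-1.38 ± 0.31, adjusted p = 0.0473). Testosterone-treated females had 2.51, 1.75 and 1.71 in null arrays, against 2.74, 2.43 and 2.23 in WT arrays, and overlapped. Male sham arrays lay close together, 2.91, 2.89 and 2.68 in null, against 2.93, 2.84 and 2.69 in WT (0.01 ± 0.31, SE), whereas castrated arrays did not overlap, 2.16, 2.24 and 2.69 in null, against 3.37, 3.49 and 2.94 in WT. The average was -0.69 ± 0.15, adjusted p = 0.0205. In female sham glands Sqle was called in only 3 of 24 fits that left out 1 array, and Msmo1 in 6, while Lss and Fdps were called in 23.

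Idi1, isopentenyl diphosphate isomerase, was 2.86, 2.65 and 1.63 in female null sham arrays, against 4.40, 3.96 and 3.03 in female WT sham arrays, without overlap and short of the threshold (-1.41 ± 0.35, adjusted p = 0.0781). It was 2.82, 2.43 and 2.07 in null females given testosterone, against 3.16, 3.25 and 2.87 in WT females given it, each null array under each WT array. Male sham arrays overlapped, with 3.38, 3.36 and 2.89 in null arrays, against 3.29, 3.09 and 3.83 in WT arrays. Castrated arrays did not, with 2.95, 3.01 and 3.83 in null arrays, against 4.03, 4.21 and 3.96 in WT arrays. Idi1 fell in the average of the pairs (-0.76 ± 0.18, adjusted p = 0.024). Fdft1, squalene synthase, averaged -0.26 ± 0.14, adjusted p = 0.411, and its dimmer second probe gave 0.28 in female sham glands, against -0.61 for the brighter one.

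All 9 enzymes that lead to lanosterol and cholesterol were negative in female sham glands and in castrated males, with medians of -1.10 and -0.76, against -0.46 in females given testosterone and -0.01 in male sham glands. Lss, lanosterol synthase, closes the sterol ring system. It was -1.17, -0.82 and -1.71 in female null sham arrays, against 0.11, 0.22 and 0.82 in female WT sham arrays, 3.06-fold lower with no overlap (-1.61 ± 0.28, adjusted p = 0.00888). Under testosterone it was -0.92, -0.96 and -1.17 in null females, against -0.46, -0.11 and 0.59 in WT females, and male sham arrays gave -0.39, -0.05 and -0.56 in null, against 0.73, 0.19 and -0.10 in WT. Castrated arrays gave -0.85, -0.52 and -0.42 in null, against 0.15, 0.34 and 0.01 in WT. The groups overlapped only in male sham glands, and there by 1 array on each side. Lss had the smallest p of the 31 genes in the average of the pairs (-1.0 ± 0.14, adjusted p = 0.000714).

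Msmo1, the methylsterol oxidase, was 4.58, 4.39 and 4.14 in female null sham arrays, against 5.82, 5.47 and 4.92 in female WT sham arrays (-1.03 ± 0.23, adjusted p = 0.048). It was 4.37, 4.60 and 4.31 in null females given testosterone, against 4.93, 4.58 and 4.31 in WT females given it. It was 5.06, 4.97 and 4.47 in male null sham arrays, against 4.53, 4.39 and 4.45 in male WT sham arrays. Only the female sham arrays did not overlap, and in male sham glands 2 of the null arrays stood above every WT array (0.38 ± 0.23, adjusted p = 0.999). Castrated arrays stood at 4.54, 4.53 and 5.04 in null, against 5.32, 5.36 and 4.85 in WT, and Msmo1 did not pass in the average (-0.33 ± 0.12, adjusted p = 0.159).

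Nsdhl, an X-linked sterol dehydrogenase, was -0.06, 0.18 and -0.78 in female null sham arrays, against 0.62, 1.22 and 0.80 in female WT sham arrays. It was 0.83, -0.16 and -0.79 in null females given testosterone, against 0.24, 0.77 and 0.60 in WT females given it. The sham arrays did not overlap, and null testosterone array 1, which carried liver transcripts, was above every WT array. Male sham arrays read 0.76, 0.90 and 0.96 in null, against 1.24, 0.95 and 1.26 in WT, and castrated arrays read 0.13, 0.17 and 0.41 in null, against 1.07, 0.99 and 0.95 in WT. Nsdhl fell in the average of the pairs (-0.68 ± 0.15, adjusted p = 0.0194), and its second probe had the same sign in each of the 10 comparisons of 2 groups.

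Sc5d, the desaturase that acts near the end of the pathway, was 2.29, 2.30 and 1.36 in female null sham arrays, against 3.38, 3.37 and 2.77 in female WT sham arrays. It was 3.35, 2.14 and 1.72 in null females given testosterone, against 2.78, 2.98 and 2.84 in WT females given it. Here too null array 1 stood above the WT arrays while the other null arrays lay below them. In males it was 3.19, 3.07 and 2.84 in null sham arrays, against 3.61, 3.68 and 3.41 in WT sham arrays, and 2.25, 2.43 and 2.47 in null castrated arrays, against 3.64, 3.57 and 3.07 in WT castrated arrays. Neither male pair overlapped, and Sc5d averaged -0.81 ± 0.16, adjusted p = 0.00952. The remaining 5 enzymes of this stretch were not called in any null and WT pair. Tm7sf2, a sterol reductase, was at -1.22 ± 0.29, adjusted p = 0.0615 in female sham glands, and Dhcr7 at -1.06 ± 0.25, adjusted p = 0.0547. The others there were Hsd17b7, a ketoreductase, at -1.35 ± 0.49, adjusted p = 0.284, the demethylase Cyp51 at -1.03 ± 0.50, adjusted p = 0.5 and the X-linked isomerase Ebp at -0.54 ± 0.27, adjusted p = 0.519. Cyp51 replicates were far apart, from -1.67 to 1.06 in female WT sham arrays.

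Of the genes called in female sham glands, 4 had a promoter in the reference sequences. These 4 fell together in female null sham glands. Their promoters are shown with the box CCAAT or its reverse complement ATTGG in capitals. Each is the 250 bases before the annotated start on the gene's own strand in RefSeq (GRCm38.p6): chr10:76531355-76531604 on the plus strand for Lss, chr8:122443423-122443672 on the minus strand for Mvd, chr8:64733579-64733828 on the minus strand for Msmo1 and chr5:28071162-28071411 on the plus strand for Insig1.
Lss: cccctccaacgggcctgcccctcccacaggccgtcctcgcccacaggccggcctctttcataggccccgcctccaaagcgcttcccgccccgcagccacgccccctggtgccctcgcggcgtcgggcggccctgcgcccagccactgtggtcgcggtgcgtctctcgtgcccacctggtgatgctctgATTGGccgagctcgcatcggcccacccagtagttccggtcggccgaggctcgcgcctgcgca
Mvd: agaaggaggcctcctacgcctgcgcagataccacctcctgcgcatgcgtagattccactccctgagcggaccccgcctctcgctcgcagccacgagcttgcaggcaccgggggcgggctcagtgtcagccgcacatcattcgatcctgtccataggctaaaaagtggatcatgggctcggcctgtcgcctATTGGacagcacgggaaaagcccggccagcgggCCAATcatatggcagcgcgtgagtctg
Msmo1: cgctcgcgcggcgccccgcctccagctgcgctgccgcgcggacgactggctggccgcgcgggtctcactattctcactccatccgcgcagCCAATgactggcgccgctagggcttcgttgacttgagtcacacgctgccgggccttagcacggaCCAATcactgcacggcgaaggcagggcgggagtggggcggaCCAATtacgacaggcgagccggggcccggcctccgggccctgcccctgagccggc
Insig1: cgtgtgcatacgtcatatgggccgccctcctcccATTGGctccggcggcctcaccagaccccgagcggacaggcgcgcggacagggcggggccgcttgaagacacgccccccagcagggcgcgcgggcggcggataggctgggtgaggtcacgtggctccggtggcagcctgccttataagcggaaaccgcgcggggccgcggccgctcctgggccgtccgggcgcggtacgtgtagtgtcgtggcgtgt
The first capital of each box lies 62 bases before the start in Lss, at 60 and 27 in Mvd, at 160, 96 and 55 in Msmo1 and at 216 in Insig1. A gene was counted when any of its promoters held the letters. On either strand, 21 of the 25 cholesterol genes with a promoter in the table held CCAAT (84.0%), while 37.5% of all 27025 genes with one did. GGGCGG, the letters bound by Sp1, was in 22 of 25 (88.0%), while 35.4% of all genes held it, and CACGTG, an E-box, was in 7 (28.0%), while 6.86% did. The median GC content was 61.8% for promoters of these genes and 52.4% for all promoters. The shares over all genes were not matched for GC content or for expression in the adrenal, so the differences may not be particular to cholesterol genes. TCACNCCAC, a form of the sterol regulatory element, was in 1 gene, Hmgcs1, at 137 bases before the start, while 1.22% of genes held it. The Hmgcs1 promoter (chr13:119690101-119690350, plus strand) follows with that match in capitals.
Hmgcs1: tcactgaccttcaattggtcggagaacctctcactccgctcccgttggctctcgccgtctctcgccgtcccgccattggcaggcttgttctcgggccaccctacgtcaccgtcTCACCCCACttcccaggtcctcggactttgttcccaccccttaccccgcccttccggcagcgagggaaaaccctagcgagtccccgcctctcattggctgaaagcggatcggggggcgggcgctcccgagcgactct
The shorter CACCCCAC, which overlaps it, was in Acat2 and Hmgcs1, while 2.98% of genes held it. Such matches describe letters and not bound sites.

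**Figure D4:**
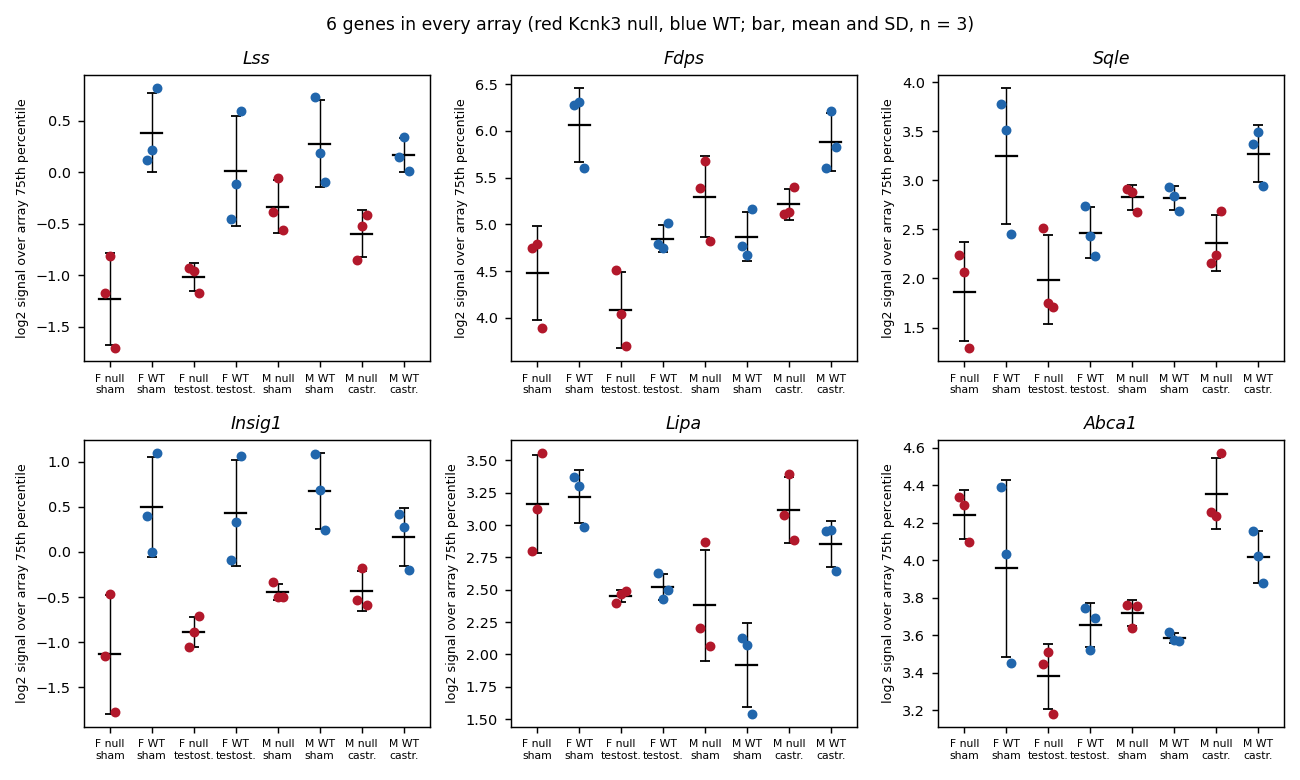
Level of Lss, Fdps, Sqle, Insig1, Lipa and Abca1 on every array (log2 signal over the 75th percentile of the array), by group, null in red to the left of WT in blue, with the mean and 1 SD (n = 3). The red points of Lss and Insig1 sit under the blue ones in each female pair, and those of Lipa and Abca1 are high in the sham females and the castrated males.

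Among the 5 control proteins Insig1 fell, and the transcription factors did not pass. Insig1 was -1.15, -0.46 and -1.78 in female null sham arrays, against 0.40, 0.0043 and 1.10 in female WT sham arrays (-1.63 ± 0.34, adjusted p = 0.03, 3.1-fold lower). It was -1.05, -0.89 and -0.71 in null females given testosterone, against -0.09, 0.33 and 1.07 in WT females given it. In male sham glands it was -0.34, -0.50 and -0.49 in null arrays, against 1.09, 0.69 and 0.24 in WT arrays. No pair so far overlapped, and the castrated pair did, with -0.54, -0.17 and -0.59 in null arrays, against 0.42, 0.28 and -0.19 in WT arrays. The average of the pairs was -1.17 ± 0.17, adjusted p = 0.000907. The Insig1 probe lies on chromosome 5 at 28404246 to 28404305 (mm9), 2.52 Mb from the Kcnk3 probe. In male sham glands its difference of -1.12 was the lowest of the 31 genes, whose median was -0.01. The part of its closeness to the deleted gene in the Insig1 differences was not tested.

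Srebf2, the factor that mainly drives cholesterol synthesis, was -0.75, -1.06 and -0.73 in female null sham arrays, against -0.07, -0.57 and -0.48 in female WT sham arrays, without overlap and short of the threshold (-0.48 ± 0.19, adjusted p = 0.336). A second probe of it gave 0.04. It was -0.40, -0.14 and -0.69 in null females given testosterone, against -0.14, -0.42 and -0.16 in WT females given it, with overlap. Male sham values were -0.24, -0.58 and -0.93 in null arrays, against -0.84, -1.06 and -1.25 in WT arrays, higher in null by 0.47 ± 0.19 (SE), and castrated values were -0.52, -0.66 and -0.44 in null arrays, against -0.74, -0.72 and -0.78 in WT arrays. The castrated null arrays all stood above the WT arrays, so the sign was negative in the female pairs and positive in the male pairs, and the average of the 4 was 0.01 ± 0.09, adjusted p = 0.985.

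Srebf1, whose products mainly drive fatty acid synthesis, overlapped between null and WT in all 4 pairs. It was 0.68, 0.95 and 0.38 in female null sham arrays, against 0.48, 1.10 and 0.96 in female WT sham arrays, and 0.92, 1.19 and 0.59 in null females given testosterone, against 0.73, 0.89 and 1.24 in WT females given it. It was 0.79, 1.11 and 0.90 in male null sham arrays, against 1.58, 1.59 and 0.67 in male WT sham arrays, and 1.34, 1.20 and 0.88 in null castrated arrays, against 0.92, 1.03 and 0.69 in WT castrated arrays. The average was -0.08 ± 0.12, adjusted p = 0.836. Scap averaged -0.00033 ± 0.08, adjusted p = 0.999 and Insig2, the second retention protein, -0.14 ± 0.08, adjusted p = 0.437.

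None of the 8 genes of uptake, ester turnover, lysosomal exit and efflux was called between null and WT in any pair or in the average, where their median was -0.13. Scarb1, the lipoprotein receptor, was 6.03, 6.15 and 6.63 in female null sham arrays, against 6.86, 6.16 and 6.65 in female WT sham arrays, and 5.70, 6.47 and 6.46 in null females given testosterone, against 6.59, 6.59 and 6.51 in WT females given it. It was 6.90, 6.80 and 6.63 in male null sham arrays, against 6.79, 6.46 and 6.65 in male WT sham arrays, and 5.87, 6.56 and 6.81 in null castrated arrays, against 5.97, 6.12 and 5.99 in WT castrated arrays. Only the testosterone pair did not overlap, by a narrow margin, and the average was -0.03 ± 0.12, adjusted p = 0.955. Its dimmer probe gave -0.72 in female sham glands, against -0.29 for the brighter one, and -1.01 against -0.35 with testosterone.

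Soat1 esterifies cholesterol for storage. It was 0.97, 1.24 and 1.20 in female null sham arrays, against 1.40, 1.40 and 1.65 in female WT sham arrays, and 0.47, 1.67 and 1.52 in null females given testosterone, against 1.22, 1.28 and 0.53 in WT females given it. Male sham arrays gave 0.80, 1.07 and 1.03 in null, against 1.28, 1.06 and 0.96 in WT, and castrated arrays gave 0.76, 0.76 and 0.62 in null, against 1.40, 1.22 and 1.03 in WT. The null arrays were all below the WT arrays in female sham and castrated glands and overlapped them elsewhere (average -0.19 ± 0.12, adjusted p = 0.509).

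Lipe, hormone-sensitive lipase, releases cholesterol from stored esters and is abundant in fat. It was 0.41, 1.34 and 0.25 in female null sham arrays, against 0.81, 1.23 and 2.19 in female WT sham arrays, and 1.14, 1.19 and 1.27 in null females given testosterone, against 1.12, 1.42 and 2.99 in WT females given it. The 2 arrays of slide 4, WT array 3 of each treatment, were the highest of all 24, as was the summed signal of 9 adipocyte markers on them, 1422 after sham and 1621 with testosterone. In males it was 0.98, 1.23 and 1.20 in null sham arrays, against 1.75, 1.52 and 0.63 in WT sham arrays, and 0.92, 1.54 and 0.42 in null castrated arrays, against 0.32, 0.89 and 0.88 in WT castrated arrays, with overlap (average -0.32 ± 0.22, adjusted p = 0.562). Npc1 and Npc2, which pass cholesterol out of the lysosome, averaged -0.07 ± 0.07, adjusted p = 0.718 and -0.29 ± 0.09, adjusted p = 0.0812. Stard4, a sterol carrier of the cytosol, averaged -0.26 ± 0.14, adjusted p = 0.394. A second, dimmer Stard4 probe gave -1.30 in female sham glands, against -0.76 for the brighter one.

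Averaged over castrated minus sham males and sham minus testosterone females of both genotypes, that is low against high androgen, 4 genes rose and none fell: Lipa, Abca1, Fdps and Hsd17b7. Of all features 3.55% passed this average, 2.09% as higher, and the median of the 31 genes was -0.05, against 0.01 over all features. Without adjustment 7 were higher (6.55% of features) and 2 were lower (6.71% of features). Leaving out any 1 array left 4 to 7 genes called, with 7 without female WT sham array 3. This average could not be fitted without the arrays with opposite sex-linked signal, since all 3 female WT testosterone arrays carried it. The other pathway groups gave few calls in this average. Of 6 LXR-linked genes Nr1h3, which encodes an LXR receptor, fell (-0.40 ± 0.10, adjusted p = 0.0235), of 16 other cholesterol handling genes Nceh1, a cholesterol ester hydrolase, rose (0.46 ± 0.09, adjusted p = 0.0044), and of 9 steroid synthesis genes Nr5a1, the steroidogenic transcription factor, rose (0.62 ± 0.13, adjusted p = 0.00809).

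Lipa is the lysosomal acid lipase, which frees cholesterol from lipoprotein esters. It was 3.08, 3.39 and 2.88 in castrated null males, against 2.20, 2.87 and 2.07 in sham null males, and 2.96, 2.96 and 2.65 in castrated WT males, against 2.13, 2.07 and 1.54 in sham WT males. It was 2.40, 2.47 and 2.49 in null females given testosterone, against 2.80, 3.13 and 3.56 in sham null females, and 2.63, 2.43 and 2.50 in WT females given it, against 3.37, 3.30 and 2.98 in sham WT females. In all 4 pairs the arrays with low androgen stood above those with high androgen without overlap. The average was 0.77 ± 0.11, adjusted p = 0.000341, and null and WT overlapped in all 4 of their pairs.

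Abca1 exports cholesterol to apolipoproteins. It was 3.45, 3.51 and 3.18 in null females given testosterone, against 4.34, 4.30 and 4.10 in sham null females, without overlap. This was the only call among the 31 genes for testosterone in null females (-0.86 ± 0.18, adjusted p = 0.048), where 0.273% of all features passed, 0.239% as lower, and it was lost in 22 of 24 fits that left out 1 array. WT females had 3.75, 3.52 and 3.69 with testosterone, against 4.39, 4.03 and 3.45 after sham, where sham array 3 was lowest. Castrated null males had 4.26, 4.24 and 4.57, against 3.76, 3.64 and 3.76 in sham null males, and castrated WT males had 4.15, 4.02 and 3.88, against 3.62, 3.58 and 3.57 in sham WT males. Neither male pair overlapped, and the average was 0.56 ± 0.09, adjusted p = 0.0009.

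Fdps averaged 0.64 ± 0.14, adjusted p = 0.0136 for low against high androgen and Hsd17b7 1.07 ± 0.25, adjusted p = 0.0173. For Fdps, castrated minus sham was -0.08 ± 0.28 (SE) in null males and 1.01 ± 0.28 in WT males, and testosterone minus sham was -0.40 ± 0.28 in null females and -1.22 ± 0.28 in WT females. Hsd17b7 differed by 0.61 ± 0.49 in null males and 1.24 ± 0.49 in WT males after castration, and by -1.03 ± 0.49 in null females and -1.41 ± 0.49 in WT females with testosterone. Both of its probes had the same sign in each comparison of 2 groups. Whether these responses differed by genotype is the same test as the interactions given above, which neither gene passed.

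**Figure D5:**
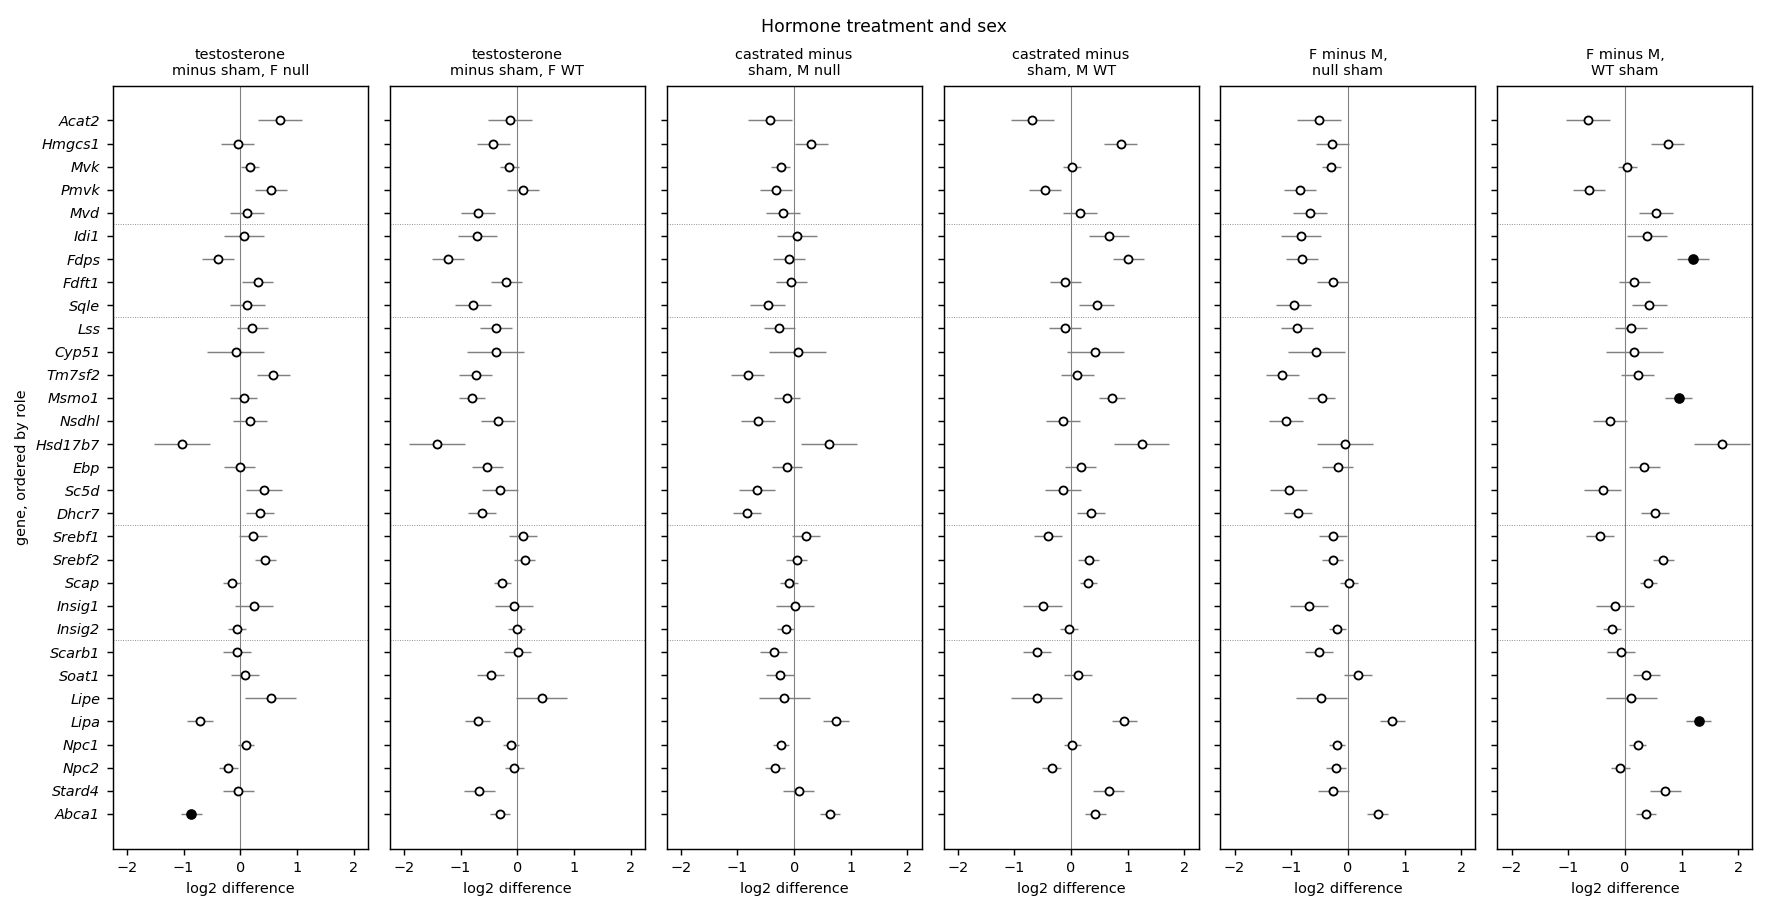
Differences for the 31 genes (rows, by role) on the log2 scale: testosterone minus sham in null and WT females, castrated minus sham in null and WT males, and female minus male in null and WT sham glands. Points are limma estimates with whiskers of 1 SE, and filled points passed an adjusted p of 0.05: Abca1 in null females with testosterone, and Fdps, Msmo1 and Lipa for female minus male in WT.

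The single hormone comparisons were otherwise without calls. For castration of null males 0 of 31 genes passed in limma, while 1.28% of all features did, with 2 higher (4.95% of features) and 3 lower (5.11% of features) at an unadjusted p under 0.05, and 9 without overlap (22.3% of features). Abca1 (0.64 ± 0.18, adjusted p = 0.11), Dhcr7 (-0.83 ± 0.25, adjusted p = 0.138), Lipa (0.74 ± 0.22, adjusted p = 0.148) and Tm7sf2 (-0.82 ± 0.29, adjusted p = 0.252) came first, and 1 gene passed without female WT sham array 1 or 3 or male null sham array 2. With slide as a block Abca1 passed as higher (adjusted p = 0.0481). For castration of WT males 0 passed, while 0.705% of features did, with 7 higher (3.58% of features) and 1 lower (3.13% of features) at an unadjusted p under 0.05, and 15 without overlap (17% of features). These were led by Lipa (0.94 ± 0.22, adjusted p = 0.0638), Fdps (1.01 ± 0.28, adjusted p = 0.145), Msmo1 (0.72 ± 0.23, adjusted p = 0.292) and Hmgcs1 (0.87 ± 0.29, adjusted p = 0.327), and 1 gene passed without female null sham array 3 or male null sham array 2. With replicate number or with slide as a block 2 genes, Hmgcs1 and Lipa, passed as higher. For testosterone in WT females 0 passed, while 0.14% of features did, with 9 lower at an unadjusted p under 0.05 (3.45% of features), 6 without overlap (8.16% of features) and a median of -0.34. There Fdps (-1.22 ± 0.28, adjusted p = 0.119), Msmo1 (-0.80 ± 0.23, adjusted p = 0.27), Lipa (-0.70 ± 0.22, adjusted p = 0.359) and Hsd17b7 (-1.41 ± 0.49, adjusted p = 0.46) led. After Abca1, the smallest p-values for testosterone in null females were those of Lipa (-0.71 ± 0.22, adjusted p = 0.351), Srebf2 (0.44 ± 0.19, adjusted p = 0.653) and Hsd17b7 (-1.03 ± 0.49, adjusted p = 0.761), and the median there was 0.10. The second Srebf2 probe had the opposite sign there, at -0.60. In that comparison 2 genes were lower (4.06% of features) and 1 was higher (2.55% of features) at an unadjusted p under 0.05, and 4 did not overlap (8.98% of features). Within slides the medians ran from -0.41 to 0.01 for castration of null males, from 0.12 to 0.22 for castration of WT males, from -0.14 to 0.19 for testosterone in null females and from -0.51 to -0.07 for testosterone in WT females.

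Between the sexes, Fdps, Msmo1 and Lipa were higher in females than in males among WT sham glands, and no gene was lower. Fdps differed by 1.20 ± 0.28, adjusted p = 0.0272, Msmo1 by 0.95 ± 0.23, adjusted p = 0.0343 and Lipa by 1.30 ± 0.22, adjusted p = 0.00287, while 2.61% of all features passed, 1.57% as higher. Without adjustment 9 genes were higher (7.22% of features) and 1 was lower (6.74% of features), and 11 did not overlap (17.9% of features). Srebf2 came next (0.68 ± 0.19, adjusted p = 0.0611). For these genes no WT female array overlapped a WT male array, as the values given above for each show. The count was 1 without male WT sham array 1 or 2 or female WT sham array 1 or 2, and it was 7 without female WT sham array 3, the array with an integrity number of 3. With replicate number as a block it was 5, with Hmgcs1 and Srebf2 added, and with slide as a block it was 8, of which Acat2 and Srebf1 were lower in females. With female WT sham array 1 alone for the WT females, the arrays without opposite sex-linked signal gave 4 calls: Msmo1, Lipa, Hsd17b7 (2.99, adjusted p = 0.0128, against 1.71 ± 0.49, adjusted p = 0.0791 on all arrays) and Stard4 (1.41, adjusted p = 0.014). Of the other pathway genes in WT sham glands, Fads2, a fatty acid desaturase (1.18 ± 0.22, adjusted p = 0.00491), and Nr5a1 (1.62 ± 0.26, adjusted p = 0.00154) were higher in females. Both were called in all 24 fits that left out 1 array, and without the arrays with opposite sex-linked signal Fads2 was at 1.05 (adjusted p = 0.079). Within slides 1 and 2 the median of the 31 genes was 0.29 and 0.39.

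In null sham glands the sign was the other way for most genes, with 27 of 31 lower in females than in males and a median of -0.47, against 0.03 over all features. None passed in limma, while 1.02% of all features did, and at an unadjusted p under 0.05 there were 10 lower (5.23% of features) and 2 higher (5.28% of features), with 10 not overlapping (21.1% of features). Tm7sf2 (-1.16 ± 0.29, adjusted p = 0.0642), Nsdhl (-1.09 ± 0.30, adjusted p = 0.103), Dhcr7 (-0.88 ± 0.25, adjusted p = 0.11) and Lipa (0.78 ± 0.22, adjusted p = 0.118) came first. Within slides 1, 2 and 3 the median was -0.51, -0.28 and -0.52. With slide as a block 3 genes, Sqle, Lss and Tm7sf2, passed as lower, and with replicate number as a block 1 did, Tm7sf2. The count reached 3 without female null testosterone array 1 and 1 without any one of female null sham arrays 2 and 3, female null testosterone array 3, female WT sham array 3 and male null sham array 2. Leaving out the arrays with opposite sex-linked signal, which left male null sham array 3 alone in its group, the median was -0.23.

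Of 12 fatty acid genes that the products of Srebf1 and Srebf2 are known to drive, 6 fell in the average of the pairs and none rose, while 1.36% of all features fell, and all 12 were negative (median -0.44). The 4 with the smallest p were Acss2, which makes acetyl-CoA from acetate (-1.05 ± 0.20, adjusted p = 0.00802), the desaturase Scd1 (-0.86 ± 0.17, adjusted p = 0.0108), malic enzyme Me1 (-0.43 ± 0.09, adjusted p = 0.0181) and the elongase Elovl6 (-1.06 ± 0.24, adjusted p = 0.0205), and the other two were Elovl5 and Acly. With 1 array left out Acly was called in 10 of 24 fits and Elovl5 in 18. In the average of 3 pairs without the arrays with opposite sex-linked signal, 0 of the 12 passed in limma, with Acss2 at -0.97 (adjusted p = 0.514) and Scd1 at -1.01 (adjusted p = 0.472). In female sham glands none of the 12 passed, all were negative and the median was -0.84. None of the 6 LXR-linked and none of the 16 other cholesterol handling genes passed in female sham glands or in the average, with medians of 0.16 and -0.11 in female sham glands. Of 9 steroid synthesis genes Mrap, the accessory protein of the corticotropin receptor, fell in female sham glands (-0.99 ± 0.22, adjusted p = 0.047) and in the average (-0.67 ± 0.11, adjusted p = 0.00256), and the median of the 9 in female sham glands was -0.20. The female sham call of Mrap was kept in 5 of 24 fits that left out 1 array. Without the arrays with opposite sex-linked signal Mrap passed neither in female sham glands (-1.37, adjusted p = 0.0999) nor in the average of 3 pairs (-0.85, adjusted p = 0.128).

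Other transcripts moved with the genotype and androgen comparisons. The summed signal of 3 markers of the X-zone, a transient inner zone of the mouse cortex that androgen removes, was 145, 104 and 30.2 times the 75th percentile in female null sham arrays, against 512, 444 and 171 in female WT sham arrays. It was 21.7, 2.78 and 3.26 in null females given testosterone, against 106.9, 70.2 and 123 in WT females given it, where null arrays had 2 of the 3 markers well above background. It was 121, 183 and 6.86 in male null sham arrays, against 2.86, 5.10 and 13.8 in male WT sham arrays, so the 2 null arrays with opposite sex-linked signal were also high in X-zone markers. In castrated males it was 250, 201 and 274 in null arrays, against 363, 375 and 262 in WT arrays. In null females given testosterone and male WT sham glands the sums were nearly all 1 marker, Cyp2f2. It was highest there on female null testosterone array 1 and male WT sham array 3, which carried liver transcripts (log2 4.43 and 3.78). On these 2 arrays Akr1c18 was at -3.78 and -3.56 and Pik3c2g at -5.85 and -6.47. The part of liver RNA in these sums was not tested. None of the 3 markers was called between null and WT in any of the 4 pairs or in their average. All 3 were called higher in the average of low against high androgen. The X-zone sum was thus lower in null than in WT females without overlap with either treatment, as was the array median of the cholesterol genes. The male pairs did not run in parallel. In castrated males the X-zone sums overlapped and the cholesterol medians did not. In male sham glands 2 null arrays were above every WT array in X-zone sum, while the cholesterol medians overlapped.

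The summed signal of 9 adipocyte markers, all well above background, was 730, 922 and 378 in female null sham arrays, against 961, 936 and 1422 in female WT sham arrays, also without overlap, with a median difference of -0.85 and none of the 9 called. It was 854 to 956 in male null sham arrays, against 894 to 1242 in male WT sham arrays, and 733 to 984 in castrated null males, against 806 to 966 in castrated WT males. In females given testosterone it was 773 to 798 in null arrays, against 975 to 1621 in WT arrays. Of 4 zona glomerulosa markers Agtr1b fell in female null sham glands (-1.70 ± 0.35, adjusted p = 0.0286), and the summed signal of the list was 47.9 to 49.8 in null arrays, against 51.5 to 69.6 in WT arrays. Most of that sum was 1 marker, Hsd3b6, on every array (log2 5.08 to 6.02), so the sum says little of the other markers. The adrenal cortex sum was 1277 to 1668 in female null sham arrays, against 1389 to 2046 in female WT sham arrays. Chromaffin, endothelial, macrophage and red blood cell sums overlapped between the 2 groups, with medians of -0.36, 0.02, 0.15 and 0.63, and kidney tubule markers stayed under 1. Hepatocyte markers summed to 1257 on female null testosterone array 1 and 793 on male WT sham array 3, and to 5.25 to 21.7 elsewhere. None of the chromaffin, endothelial, macrophage, red blood cell, kidney tubule and hepatocyte markers was called in female sham glands. In the average of the 4 null and WT pairs, 2 of 4 zona glomerulosa markers fell, Vsnl1 (-1.22 ± 0.26, adjusted p = 0.0165) and Agtr1b (-0.98 ± 0.17, adjusted p = 0.00447). There 1 of 9 adipocyte markers, Retn (-1.28 ± 0.25, adjusted p = 0.00843), and 2 of 6 endothelial markers, Tek (-0.37 ± 0.09, adjusted p = 0.0366) and Emcn (-0.33 ± 0.09, adjusted p = 0.0462), also fell. In castrated null against castrated WT males the zona glomerulosa markers Vsnl1 (-3.24 ± 0.52, adjusted p = 0.00315) and Agtr1b (-2.59 ± 0.35, adjusted p = 0.000638) fell and Cyp11b2, aldosterone synthase, rose (2.97 ± 0.49, adjusted p = 0.00362). The summed signal of the 4, mostly Hsd3b6, was 55.8, 40.9 and 44.6 there in null arrays, against 68.6, 61.4 and 52.6 in WT arrays, with overlap. The part of X-zone, fat, endothelial and zona glomerulosa transcripts in the results for the cholesterol genes was not tested.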

How the data were processed

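Adrenal RNA was measured on 24 one-colour Agilent arrays (62976 spots, of 60-base probes placed on mm9 per the file headers). The deposited scanner files hold spot intensity, of which the authors' processed signal, background-subtracted per the file headers, was used. A deposited table of log2 values was used as an alternative. From these, log2 processed signal minus the 75th percentile of the array was computed without control spots and outlier spots. Probes well above background on at least 3 arrays were kept (36832 of 55681), and each gene was read as its brightest probe. A limma model (limma 3.58.1, R 4.3.3) over all 8 groups tested 26372 features with Benjamini-Hochberg adjustment over them, an adjusted p under 0.05 counting as called. It had 16 residual degrees of freedom. Figures used matplotlib 3.10.9.

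On 57.0% to 64.7% of spots the signal was well above background, and 3 arrays per group limit the precision. The model was tested on simulated data for null minus WT in female sham glands (26190 features): of 100 features changed by 1 on the log2 scale 43 were called, and of 100 changed by 2, 70 were called, and 7 unchanged features were called beside them. The simulated noise was normal and independent between arrays, whereas same-numbered real arrays deviated together, so these counts may not carry over to the data. Per the labels, replicate numbers 1 and 2 each mark 1 slide, and number 3 marks slide 3, or slide 4 on 2 WT female arrays. Same-numbered arrays of different groups deviated together at a mean correlation of 0.23 over 84 pairs (-0.40 to 0.69, 67 over 0.1), and values with the number as a block are given beside the results they move.

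The genes and all lists were chosen with earlier results of these data known. Named are all called genes of each comparison, those of smallest p up to 4 where fewer were called, and up to 4 called genes of each other pathway list, of which 1 is not reported here. Array values are given for genes called between 2 groups or in the average of null and WT pairs, and for Insig1, Scarb1, Soat1, Lipe, Abca1, Srebf1 and Srebf2. Alternatives were another background correction and normalization, the deposited table, filters, slide or replicate number as a block, RNA integrity, the mean of all probes, and leaving out arrays. The average of 3 null and WT pairs, without testosterone, was chosen after seeing the data.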

Additional observations from a re-analysis of the deposited data

How the results depend on the processing

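Of 833 values of the cholesterol genes called in a comparison, recomputed under the alternatives, 723 kept their sign and their side of the threshold, 110 kept the sign and missed the threshold, and 0 reversed. For the called genes of the other pathway lists 423 of 508 kept both, 85 missed the threshold and 0 reversed. Most of these values came from the 24 fits that left out 1 array, for genes already called on the same arrays. Leaving out an array outside the groups compared leaves the difference unchanged, so such a fit could not reverse a sign. For null against WT in female sham glands the count of 6 was 3 with no filter, 10 with a replicate block and 1 without arrays with opposite sex-linked signal, and 2 to 10 with 1 array left out (median -1.04 to -0.58). The replicate block gave 2 for castration in WT males, 5 for female against male in WT, 1 for female against male in null and 1 for the sex interaction, and moved no other count by over 1.5 times. Normexp with quantile normalization gave 1 call each for castration in WT and in null males, testosterone in WT females, female against male in null and the sex interaction. The deposited table gave 1 for each of these except female against male in null, and quantile normalization alone gave 1 for castration in WT males. With slide as a block there were 2 calls for castration in WT males, 1 in null males, 8 for female against male in WT (2 of them lower), 3 in null and 1 for the sex interaction. With RNA integrity as a covariate there were 1 for castration in null males, 7 for female against male in WT (median 0.39) and 2 for the sex interaction, and the castrated null against WT median was -0.23. Without slide 4 there were 1 for castration in null males, 7 for female against male in WT (median 0.42), 1 in null and 2 for the sex interaction. The filter on all arrays gave 1 for female against male in null and 1 for the sex interaction, and the mean of all probes gave 1 for female against male in null. The testosterone call of Abca1 in null females was lost, 0, with no filter, with RNA integrity and without liver arrays. Without liver arrays there were also 1 in castrated null against WT males, 3 for female against male in null, and a testosterone interaction median of 0.25. Without arrays with opposite sex-linked signal the medians were -0.23 for female against male in null and -0.075 for the castration interaction, and the average of 3 null and WT pairs had 0 calls in limma and a median of -0.52. On those arrays the comparisons with female WT testosterone arrays, including both averages of 4 pairs, could not be fitted. The average of 3 pairs on all arrays had 8 calls. The cause of these changes was not tested.

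With 1 array left out, the count ran 0 to 1 for castrated null against WT, for castration in WT and in null males and for testosterone in null females. It ran 1 to 7 for female against male in WT (median 0.20 to 0.42), with 1 without male WT sham array 1 or 2 or female WT sham array 1 or 2 and 7 without female WT sham array 3, and 0 to 3 in null. It ran 4 to 7 for low against high androgen, 9 to 11 for the average of null and WT pairs and 0 to 2 for the sex interaction (median -0.81 to -0.45). The testosterone interaction median ran 0.25 to 0.64. No array moved the other counts off 0.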
